A study of Homo sapiens with 3 samples.

Results

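The keratins of stratified epidermis examined here were 10 genes taken by name, KRT5, KRT14, KRT15, KRT1, KRT10, KRT6A, KRT6B, KRT16, KRT17 and KRT13, out of 60506 genes on the listed chromosomes. A gene was assembled from all transcripts whose name, without its final number, is the gene symbol, which gave 55 transcripts for the 10 genes. The cells were HaCaT, an established line of immortalized human keratinocytes, grown in serum-containing medium. They were transfected with 10 nM of SRSF5 siRNA No.1 (siRNA 1), SRSF5 siRNA No.2 (siRNA 2) or a control siRNA, and each condition was sequenced as 1 library. All 3 libraries thus carry a lipid transfection, and no untransfected library was analysed here. SRSF5 belongs to the SR proteins, splicing factors that bind pre-mRNA.

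Keratins are the intermediate filament proteins of epithelia, and each filament is built from pairs of 1 type I and 1 type II chain. Basal cells of the epidermis make the type II chain KRT5 with the type I chains KRT14 and KRT15, cells that leave the basal layer turn to KRT1 and KRT10, and wounded or activated epidermis makes KRT6A, KRT6B, KRT16 and KRT17. KRT13 is the type I keratin of the upper layers of mucosae such as the mouth and oesophagus, and is not a keratin of normal adult epidermis. Cultured keratinocytes, HaCaT among them, commonly make basal and wound keratins side by side.

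The unit of the deposited values is FPKM, that is, coverage per kilobase of transcript scaled to the library total, with 1 value per transcript. Transcripts of a gene share reads, because a read was credited to every transcript it falls in. The sum over transcripts thus grows with their number. For that reason 3 quantities are used. The summed FPKM serves for ratios of a gene between libraries, the FPKM of the highest transcript is given beside it, and the FPKM of the full-length coding transcript (KRT5-201, KRT14-201 and so on) serves for comparisons between genes. Ratios are log2(summed FPKM + 1) of an siRNA library minus that of the control library. The 2 ratios of a gene share the 1 control library and are not independent.

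FPKM times transcript length came in whole multiples of a counting step. The 3 libraries held 4126967673 to 4458622346 such steps, summed over transcripts. Mitochondrial transcripts took 14.8% of these with siRNA 1 and 10.0% with siRNA 2, against 13.7% in the control. The highest SRSF5 transcript was at 4.02 FPKM with siRNA 1 and 1.84 FPKM with siRNA 2, against 7.81 FPKM in the control. The summed SRSF5 level was 47.1% and 19.8% of the control with siRNA 1 and siRNA 2. Of the 9 keratinocyte markers listed, which include KRT5 and KRT14, 9 reached 1 FPKM. Without KRT5 and KRT14 the highest transcripts of the other 7 summed to 854 FPKM with siRNA 1 and 1015 FPKM with siRNA 2, against 791 FPKM in the control. Of 5 melanocyte genes none reached 1 FPKM in any library, with TYR, TYRP1 and MLANA listed at 0 in all 3. Of 6 fibroblast genes COL1A1 alone reached 1 FPKM (1.54, 1.46 and 0.645 FPKM with siRNA 1, siRNA 2 and control). Of 5 immune genes this was so of CD68 alone, which many cell types make, at 10.1, 8.80 and 14.6 FPKM with siRNA 1, siRNA 2 and control, while PTPRC, the pan-leukocyte marker, was at 0.0779, 0.0229 and 0.0248 FPKM. Of 3 endothelial genes none reached 1 FPKM in its highest transcript, and of 4 genes of Merkel cells and simple epithelium 2 did, KRT8 and KRT18, which HaCaT makes and whose values follow with the other keratins. The list summed to 285 FPKM with siRNA 1 and 434 FPKM with siRNA 2, against 276 FPKM in the control, with KRT20 at 0.269 FPKM or less and ATOH1, the Merkel cell factor, listed at 0. In bulk RNA, fewer cells of a kind and less RNA per cell cannot be told apart, so a level below is an average over all cells of a culture.

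All 10 keratins passed the filter of a mean summed level of 1 FPKM. The 6 type I members lie on chromosome 17 and the 4 type II members on chromosome 12, all on the minus strand. Coordinates are as the files list them and match GRCh38: of 287 member exons compared with GENCODE release 29, 276 were identical. KRT14 (ENSG00000186847.6, 41582279 to 41586895), KRT16 (ENSG00000186832.9, 41609778 to 41615899) and KRT17 (ENSG00000128422.17, 41619442 to 41624842) lie close together, with KRT13 (ENSG00000171401.15, 41500981 to 41505705) and KRT15 (ENSG00000171346.16, 41513745 to 41522529) near by and KRT10 (ENSG00000186395.8, 40818117 to 40822614) farther off. On chromosome 12 stand KRT6B (ENSG00000185479.6, 52446651 to 52452146), KRT6A (ENSG00000205420.11, 52487176 to 52493257), KRT5 (ENSG00000186081.12, 52514575 to 52520530) and KRT1 (ENSG00000167768.4, 52674736 to 52680407).

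Several of these genes are close copies, which bears on how far reads can be told apart. The coding stretch in exon 1 where KRT14, KRT16 and KRT17 are most alike is printed here, as it encodes the start of the helical rod that keratins use to pair. Capitals mark the positions at which the 3 genes differ. The stretches are those of the GENCODE 29 transcripts, read 5′ to 3′ on the minus strand of chromosome 17 (GRCh38), at chr17:41586384-41586483 for KRT14, chr17:41612232-41612331 for KRT16 and chr17:41624152-41624251 for KRT17.
KRT14: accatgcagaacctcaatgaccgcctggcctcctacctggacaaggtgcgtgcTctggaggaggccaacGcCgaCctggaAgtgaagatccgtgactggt
KRT16: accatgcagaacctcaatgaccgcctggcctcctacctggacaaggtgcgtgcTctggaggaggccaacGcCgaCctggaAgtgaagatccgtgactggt
KRT17: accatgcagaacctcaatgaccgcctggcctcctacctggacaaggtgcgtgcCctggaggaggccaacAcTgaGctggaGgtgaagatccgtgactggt
Over these 100 bases KRT16 had 0 mismatches to KRT14 and KRT17 had 5, so a 100-base read from here cannot be assigned to KRT14 or to KRT16. Over the whole length, 5.95% of the 100-base windows of KRT14-201 recurred exactly in another gene, most often KRT16 (59 windows of 1563). For KRT16-201 this share was 7.18%, with KRT14 and the pseudogenes KRT16P2 and KRT16P3. For KRT17-201 it was 0.353%, with KRT17P3, so KRT17 was nearly free of such windows.

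The KRT6 genes share more. The first 100 coding bases, from the start codon in exon 1, were the same in KRT6A (chr12:52493089-52493188, minus strand), KRT6B (chr12:52451979-52452078) and KRT6C (chr12:52473638-52473737), with 0 positions differing, so no base is in capitals.
KRT6A, KRT6B and KRT6C: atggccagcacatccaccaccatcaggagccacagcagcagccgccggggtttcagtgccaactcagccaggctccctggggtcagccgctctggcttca
Of the 100-base windows of KRT6A-201, 18.2% recurred in KRT6C, KRT6B or KRT5. Of those of KRT6B-201 24.6% recurred, most often in KRT6C. The level of KRT6B is low beside that of KRT6A and is therefore uncertain. For KRT5-201 the share was 1.44%, and for KRT15-201, KRT1-201, KRT10-201 and KRT13-201 it was 0. These are the GENCODE 29 forms, which can differ in length from those in the files, most for KRT15-201 (5237 bases in GENCODE 29 and 1712 bases in the files). How the authors placed reads with several matches is not given in the sources used here.

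Among the basal keratins KRT14 stood out. KRT5, the type II chain of basal cells, had a summed level of 2558 FPKM with siRNA 1 and 3523 FPKM with siRNA 2, against 2259 FPKM in the control. Its highest transcript, the full-length KRT5-201, was at 383 and 524 FPKM with siRNA 1 and siRNA 2, against 334 FPKM in the control. KRT5 was thus 1.13-fold and 1.56-fold of the control, both short of 2-fold, and its 11 transcripts spanned 111% to 116% of the control level for siRNA 1 and 149% to 164% for siRNA 2.

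KRT14, the type I partner of KRT5, had a summed level of 1040 FPKM with siRNA 1 and 3164 FPKM with siRNA 2, against 714 FPKM in the control. The highest transcript was KRT14-203, a retained intron form of 710 bases, at 554 and 1670 FPKM with siRNA 1 and siRNA 2, against 382 FPKM in the control. The full-length KRT14-201 was at 333 and 1016 FPKM with siRNA 1 and siRNA 2, against 226 FPKM in the control. The siRNA 2 library stood far above the others, at 4.50-fold of the control in the full-length transcript, while siRNA 1 was at 1.48-fold. Its log2 ratios of summed levels were 0.54 with siRNA 1 and 2.15 with siRNA 2. The counting error of the KRT14-201 ratio, which comes from reads alone, was 0.01 in log2 for each siRNA. By the highest transcript, KRT14 held rank 35 among all genes with siRNA 1 and rank 16 with siRNA 2, against rank 49 in the control.

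KRT15, a type I keratin of basal cells that is also known as a marker of hair follicle stem cells, went a different way. Its summed level was 111 FPKM with siRNA 1 and 276 FPKM with siRNA 2, against 319 FPKM in the control. The highest transcript, KRT15-204, was at 20.4 and 49.9 FPKM with siRNA 1 and siRNA 2, against 59.0 FPKM in the control. KRT15 was low in the siRNA 1 library (log2 -1.52) and close to the control in the siRNA 2 library (log2 -0.21). The 9 listed transcripts moved alike, at 33.7% to 35.7% of the control level for siRNA 1 and at 82.4% to 96.9% for siRNA 2, but they share reads and are not separate evidence.

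The suprabasal keratins did not follow each other in summed levels. KRT1, the type II chain made when cells leave the basal layer, had a summed level of 0.913 FPKM with siRNA 1 and 18.5 FPKM with siRNA 2, against 1.61 FPKM in the control. Its highest transcript was at 0.525 FPKM with siRNA 1 and 9.35 FPKM with siRNA 2, against 0.839 FPKM in the control. The siRNA 1 and control libraries were both low, with 40.2 and 84.7 read equivalents in KRT1-201. The siRNA 2 library was high, with 924 read equivalents. The log2 ratios were -0.45 ± 0.28 with siRNA 1 and 2.90 ± 0.16 with siRNA 2, where the errors are counting errors. On the full-length transcript KRT1 was 23.6-fold higher with siRNA 2 than with siRNA 1.

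KRT10, the type I partner of KRT1, had nearly the same summed level in the 3 libraries, at 31.8 FPKM with siRNA 1 and 32.1 FPKM with siRNA 2, against 33.4 FPKM in the control. Its 2 listed transcripts pointed in opposite directions. The highest, KRT10-202, was at 22.2 and 19.8 FPKM with siRNA 1 and siRNA 2, against 24.9 FPKM in the control. The full-length KRT10-201 was at 9.58 and 12.3 FPKM with siRNA 1 and siRNA 2, against 8.52 FPKM in the control.

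KRT10-202 is a form of 583 bases and 2 exons at the 3′ end of the gene (40818117 to 40818482 and 40818767 to 40818983), and 563 of its bases also belong to KRT10-201. Since a read in the shared bases was counted in both forms, the read equivalents of KRT10-202 were subtracted from those of KRT10-201. This leaves the reads on the other 1580 bases of the full-length form that do not reach into KRT10-202. The subtraction takes away too much by reads that cross from the shared bases into the rest. It also does so by any reads on the 20 bases of KRT10-202 that lie outside KRT10-201. The remainder is therefore a lower limit. The KRT10-202 part held 547 read equivalents with siRNA 1 and 475.5 with siRNA 2, against 648 in the control. The remainder held 321 with siRNA 1 and 612.5 with siRNA 2, against 166 in the control. Scaled as FPKM to the 1580 bases, the remainder was at 4.81 with siRNA 1 and 9.39 with siRNA 2, against 2.36 in the control. These are lower limits too.

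The 2 parts of KRT10 thus differed in order between the libraries. The remainder was 2.04-fold of the control with siRNA 1 (log2 1.03, counting error 0.14) and 3.99-fold with siRNA 2 (log2 2.00, counting error 0.13), while the 3′ part was lowest with siRNA 2 and highest in the control. KRT10-202 held 63.0% of the KRT10-201 read equivalents with siRNA 1 and 43.7% with siRNA 2, against 79.6% in the control. None of the 484 windows of 100 bases in KRT10-202 recurred in an annotated transcript of another gene. The split of KRT10 was chosen after its values were seen, has no replicate, and a cause for the 3′ excess was not tested.

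**Figure D1:**
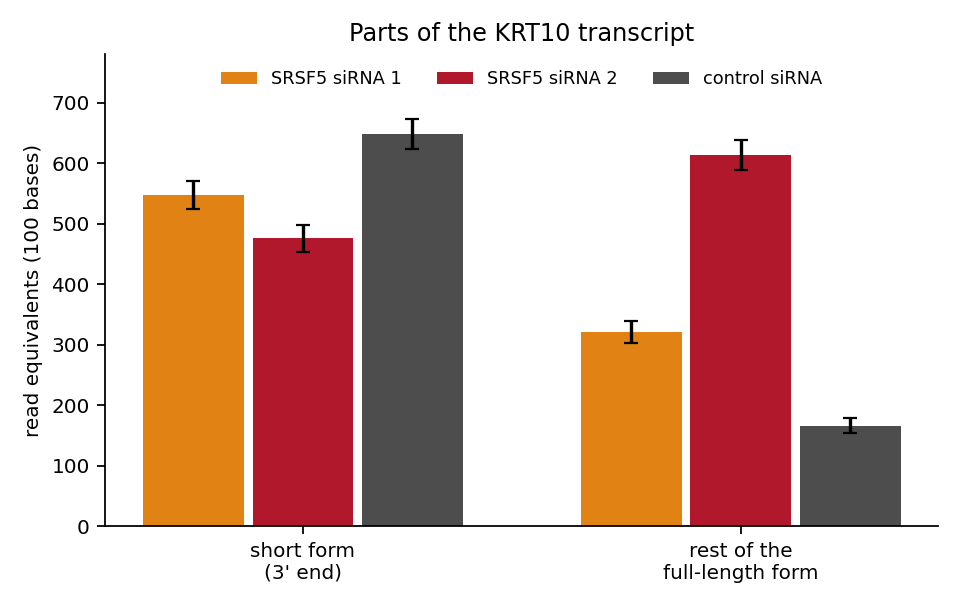
Read equivalents of KRT10-202 at the 3′ end and of the remainder of KRT10-201, for SRSF5 siRNA 1, SRSF5 siRNA 2 and control siRNA. A read equivalent is 100 counting steps, labelled 100 bases on the axis, and is not scaled for library depth. Bars are single libraries and error bars are the square root of the count. The 3′ part is lowest with siRNA 2 (475.5) and highest in the control (648), and the remainder is highest with siRNA 2 (612.5) and lowest in the control (166).

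Among the wound keratins the type I genes were above the control and the type II genes near it. KRT17, a type I keratin induced in wounded and psoriatic epidermis, had a summed level of 723 FPKM with siRNA 1 and 1312 FPKM with siRNA 2, against 263 FPKM in the control. The highest transcript, KRT17-207, was at 115 and 205 FPKM with siRNA 1 and siRNA 2, against 42.9 FPKM in the control. Both siRNA libraries stood above the control, at 2.79-fold and 5.11-fold in the full-length KRT17-201. The log2 ratio averaged 1.88 ± 0.61 (SD, n = 2 siRNAs), with 1.45 for siRNA 1 and 2.31 for siRNA 2. Its 9 transcripts reached 268% to 286% of the control level for siRNA 1 and 474% to 547% for siRNA 2.

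KRT16, the other type I wound keratin, had a summed level of 13.6 FPKM with siRNA 1 and 39.1 FPKM with siRNA 2, against 7.14 FPKM in the control. The highest transcript, KRT16-204, was at 6.20 and 16.9 FPKM with siRNA 1 and siRNA 2, against 3.05 FPKM in the control. The order of the 3 libraries was the same as for KRT14 and KRT17, with log2 ratios of 0.85 and 2.30. The full-length KRT16-201 was 1.97-fold and 5.36-fold of the control, with counting errors of 0.15 and 0.13 in log2. It held 268 and 711 read equivalents with siRNA 1 and siRNA 2, against 143 in the control. KRT14-201, with which it shares windows, held 23061 and 68603, against 16479. The KRT16 level and its likeness to KRT14 are therefore uncertain, and what part are KRT14 reads was not tested. Its 4 transcripts were less alike than those of KRT17, at 112% to 203% of the control level for siRNA 1 and 334% to 564% for siRNA 2. KRT16 was far less abundant than KRT17, which was 19.2 times KRT16 with siRNA 1 and 12.9 times with siRNA 2, against 13.5 times in the control (full-length transcripts).

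KRT6A, the main type II wound keratin, had a summed level of 480 FPKM with siRNA 1 and 470 FPKM with siRNA 2, against 594 FPKM in the control. Its highest transcript was at 118 FPKM with siRNA 1 and 125 FPKM with siRNA 2 (KRT6A-205), against 143 FPKM in the control (KRT6A-202). Both siRNA libraries lay a little below the control, with log2 ratios of -0.31 and -0.34. KRT6B had 1 listed transcript, at 2.71 FPKM with siRNA 1 and 3.42 FPKM with siRNA 2, against 2.74 FPKM in the control. These values lie within 1.3-fold of each other, and KRT6A was 37.9 times KRT6B with siRNA 1 and 29.6 times with siRNA 2, against 47.4 times in the control (full-length transcripts). The closest copy, KRT6C, had highest transcripts of 7.73 and 9.01 FPKM with siRNA 1 and siRNA 2, against 7.92 FPKM in the control.

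KRT13, the mucosal keratin, was at a summed 456 FPKM with siRNA 1 and 683 FPKM with siRNA 2, against 961 FPKM in the control. The highest transcript, KRT13-209, was at 75.0 and 114 FPKM with siRNA 1 and siRNA 2, against 161 FPKM in the control. Both siRNA libraries were below the control, the siRNA 1 library more so, with log2 ratios of -1.07 and -0.49. KRT13 and KRT15, neighbours on chromosome 17, thus had the same order of libraries, with the control highest and siRNA 1 lowest. The 9 KRT13 transcripts spanned 43.1% to 49.4% of the control level for siRNA 1 and 64.2% to 73.6% for siRNA 2.

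**Figure D2:**
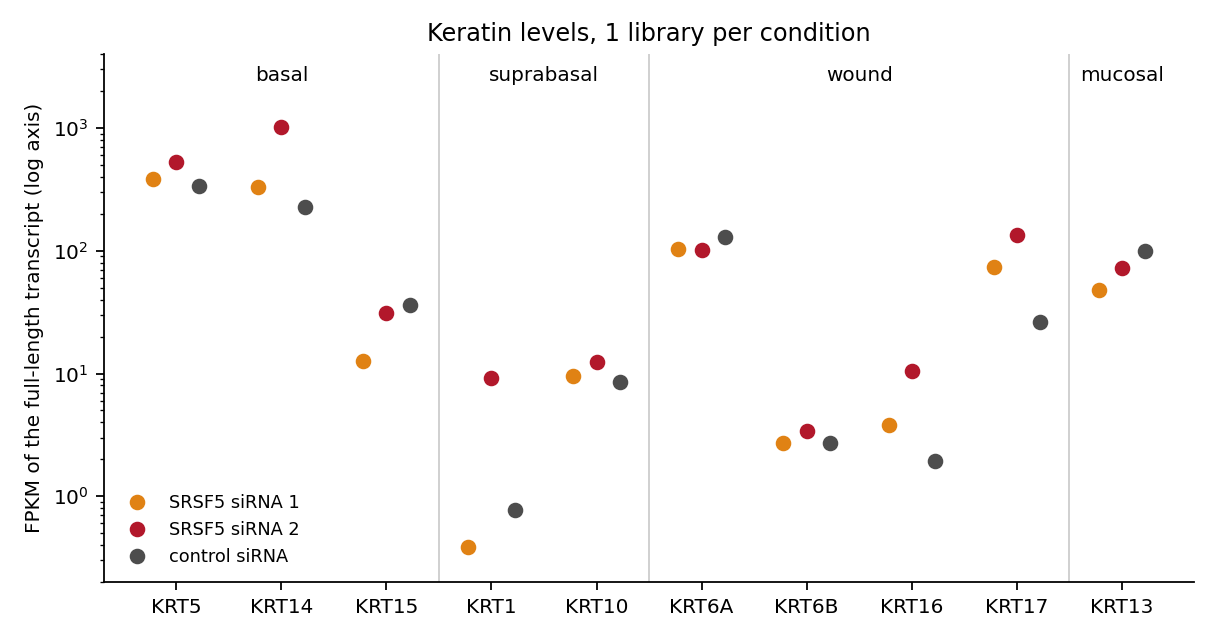
FPKM of the full-length coding transcript of each keratin on a log axis, for SRSF5 siRNA 1, SRSF5 siRNA 2 and control siRNA, with the genes grouped by class. Points are single libraries without replicates. KRT14, KRT16 and KRT17 are lowest in the control and highest with siRNA 2, KRT15 and KRT13 are lowest with siRNA 1, and KRT1 is high with siRNA 2 alone.

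The members were also ordered by level within each library, on the full-length transcript. In the control the order was KRT5 (334 FPKM), KRT14 (226 FPKM), KRT6A (130 FPKM), KRT13 (99.4 FPKM), KRT15 (36.0 FPKM), KRT17 (26.3 FPKM), KRT10 (8.52 FPKM), KRT6B (2.74 FPKM), KRT16 (1.94 FPKM) and KRT1 (0.775 FPKM). With siRNA 1 KRT5 (383 FPKM) and KRT14 (333 FPKM) still led, and KRT17 (73.4 FPKM) stood above KRT13 (48.2 FPKM) and KRT15 (12.6 FPKM). With siRNA 2 KRT14 (1016 FPKM) was above KRT5 (524 FPKM), KRT17 (134 FPKM) was above KRT6A (101 FPKM), and KRT1 (9.14 FPKM) lay between KRT16 (10.4 FPKM) and KRT6B (3.42 FPKM). With 1 library per condition, no spread between replicates can be set against the steps between neighbours in these orders.

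By class, basal keratins summed over full-length transcripts were at 729 FPKM with siRNA 1 and 1572 FPKM with siRNA 2, against 596 FPKM in the control. They made up 75.2% and 82.1% of the 10 keratins with siRNA 1 and siRNA 2, against 68.9% in the control, and KRT14 gave most of the increase. Wound keratins were at 183 FPKM with siRNA 1 and 249 FPKM with siRNA 2, against 161 FPKM in the control. Their share was 18.8% with siRNA 1 and 13.0% with siRNA 2, against 18.6% in the control, so with siRNA 2 a higher level went with a lower share. Suprabasal keratins were at 9.97 FPKM with siRNA 1 and 21.4 FPKM with siRNA 2, against 9.29 FPKM in the control, and stayed at 1.03% and 1.12%, against 1.07%, of the sum. KRT13 held 4.97% with siRNA 1 and 3.76% with siRNA 2, against 11.5% in the control.

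On the highest transcripts the log2 ratios with siRNA 1 were 0.30 for the basal, 0.33 for the wound and -0.18 for the suprabasal class, and -1.10 for KRT13. With siRNA 2 they were 1.53 for the basal, 0.87 for the wound and 0.18 for the suprabasal class, and -0.50 for KRT13. The suprabasal class is the one that depended on the choice of transcript, with 0.10 for siRNA 1 and 1.21 for siRNA 2 on the full-length transcripts, because KRT10-202 outweighs KRT1 in the sum of highest transcripts. Summed over the 10 genes, full-length keratin transcripts were at 970 FPKM with siRNA 1 and 1915 FPKM with siRNA 2, against 865 FPKM in the control.

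**Figure D3:**
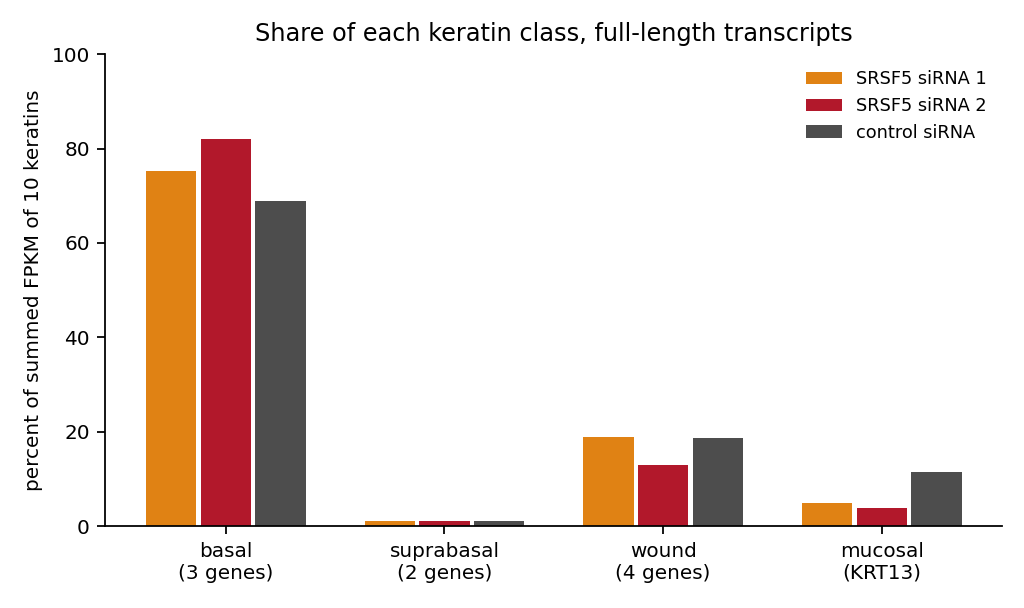
Share of each keratin class in the summed FPKM of the 10 full-length keratin transcripts, in percent, for SRSF5 siRNA 1, SRSF5 siRNA 2 and control siRNA. Bars are single libraries. The basal share is 75.2% and 82.1% with siRNA 1 and siRNA 2, against 68.9% in the control, and the KRT13 share is 4.97% and 3.76%, against 11.5%.

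Since type I and type II chains pair in filaments, the balance of their RNAs was compared on full-length transcripts. KRT14 was 0.870 times KRT5 with siRNA 1 and 1.94 times with siRNA 2, against 0.676 times in the control. KRT17 was 0.714 times KRT6A with siRNA 1 and 1.33 times with siRNA 2, against 0.202 times in the control. KRT16 was 0.0372 times KRT6A with siRNA 1 and 0.103 times with siRNA 2, against 0.0149 times in the control. In these 3 pairs the type I chain was relatively highest with siRNA 2 and lowest in the control. KRT10 was 24.7 times KRT1 with siRNA 1 and 1.35 times with siRNA 2, against 11.0 times in the control, so here the type II chain was relatively highest with siRNA 2. Over all members, the 6 type I genes were 0.983 times the 4 type II genes with siRNA 1 and 2.00 times with siRNA 2, against 0.852 times in the control.

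**Figure D4:**
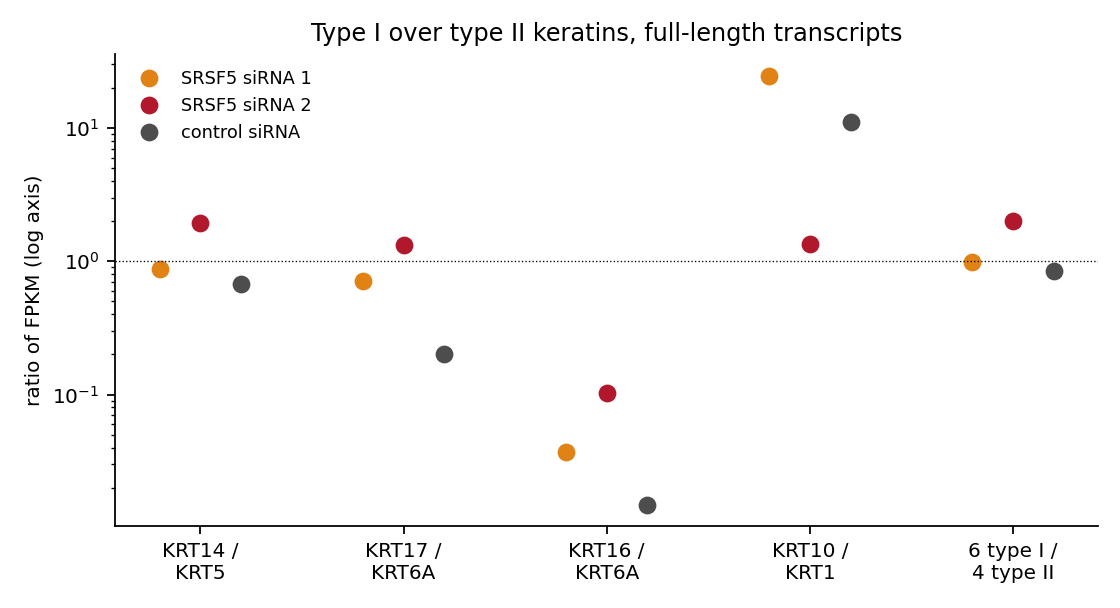
Ratio of type I to type II keratin FPKM (full-length transcripts, log axis) for SRSF5 siRNA 1, SRSF5 siRNA 2 and control siRNA; the dotted line is a ratio of 1. Points are single libraries. KRT14 over KRT5, KRT17 over KRT6A and KRT16 over KRT6A are highest with siRNA 2 and lowest in the control, and KRT10 over KRT1 is lowest with siRNA 2.

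Over all genes, 13923 passed the filter of a mean summed level of 1 FPKM. At least 2-fold higher in both siRNA libraries was 1 of the 10 keratins, KRT17, against 0.733% of all genes, and 0 were at least 2-fold lower in both, against 0.28%. With siRNA 1 alone 1 keratin was higher, KRT17, against 1.7% of genes, and 2 were lower, KRT15 and KRT13, against 1.33%. With siRNA 2 alone 4 keratins were higher, KRT14, KRT1, KRT16 and KRT17, against 4.5% of genes, and 0 were lower, against 2.83%. Between the siRNAs, KRT14, KRT15, KRT1 and KRT16 were at least 2-fold higher with siRNA 2 than with siRNA 1, which 3.96% of genes were, and 0 keratins were lower, against 2.88% of genes.

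The only spread between samples that could be estimated is that between the 2 siRNAs, and limma used it with 1 residual degree of freedom, with the lone control assumed to vary like them. None of the 10 keratins passed in limma, nor did any other gene (0% of 13923), with 416 genes at an unadjusted p below 0.05. KRT17 came nearest among the keratins (log2 1.88, SE 0.44, unadjusted p = 0.0011, Benjamini-Hochberg adjusted p = 0.79 in limma), and it was higher in both siRNA libraries. KRT16 (log2 1.57, SE 0.55) and KRT14 (log2 1.34, SE 0.57) had a Benjamini-Hochberg adjusted p of 1.00 in limma, as had the other 7. The distance between the siRNAs in log2 ratio was larger than the size of the mean log2 ratio for 5 of the 10 keratins. These were KRT1 (3.35 against a mean of 1.22), KRT14 (1.60 against 1.34), KRT15 (1.31 against -0.87), KRT5 (0.46 against 0.41) and KRT6B (0.25 against 0.12). For KRT10 (SD 0.01 around -0.07) and KRT6A (SD 0.02 around -0.32) the siRNAs were close to each other in summed level. Nothing in the labels says that a transfection was repeated, so these spreads describe the 3 samples and may in part be technical.

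**Figure D5:**
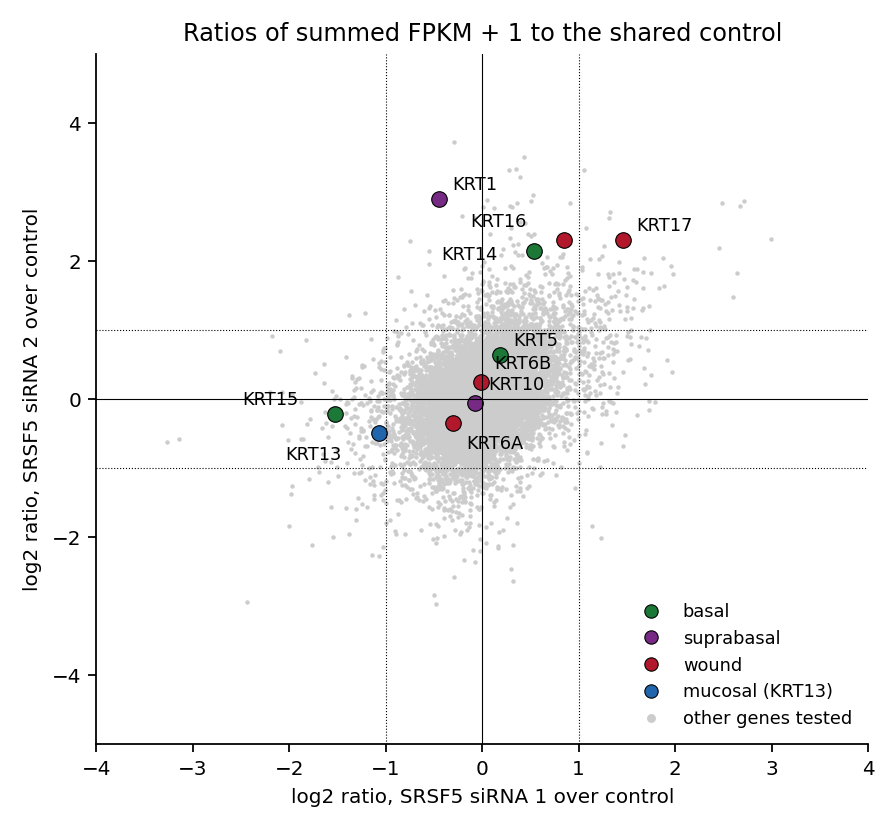
Log2 ratios of summed FPKM + 1 to the shared control for SRSF5 siRNA 1 (x axis) and SRSF5 siRNA 2 (y axis), 1 point per gene tested. Grey points are other genes, coloured points the 10 keratins by class, and dotted lines mark 2-fold. KRT17 alone lies beyond 2-fold on both axes, KRT1, KRT14 and KRT16 lie beyond it for siRNA 2, and KRT15 and KRT13 below it for siRNA 1. Both axes share the control library.

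Pseudogenes of KRT16 and KRT17 were listed with low values, and their sums had the same order of libraries as their parents. KRT17P4 did not, at 0.0239 and 0.121 FPKM with siRNA 1 and siRNA 2, against 0.0318 FPKM in the control, and KRT17P8 was listed at 0 with siRNA 1 and in the control. The highest transcripts of 6 KRT16 pseudogenes summed to 1.74 FPKM with siRNA 1 and 7.38 FPKM with siRNA 2, against 1.11 FPKM in the control. Those of 8 KRT17 pseudogenes summed to 3.0 FPKM with siRNA 1 and 6.76 FPKM with siRNA 2, against 0.976 FPKM in the control. The highest of them, KRT16P6, was at 0.798 and 3.81 FPKM with siRNA 1 and siRNA 2, against 0.515 FPKM in the control, and KRT17P3 was at 1.28 and 3.01 FPKM, against 0.406 FPKM. KRT16 itself had a highest transcript of 6.20 and 16.9 FPKM with siRNA 1 and siRNA 2, against 3.05 FPKM in the control, so the pseudogenes summed to less than their parent in each library. What part of these values are reads of the parent genes was not tested.

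Of 19 other keratins 9 passed the filter, and 0 were at least 2-fold from the control in both siRNA libraries. Their median log2 ratio was 0.03 with siRNA 1 and 0.32 with siRNA 2, where all genes tested had -0.02 and 0.05. The simple epithelial keratins were abundant in HaCaT. KRT19 had a highest transcript of 412 FPKM with siRNA 1 and 397 FPKM with siRNA 2, against 479 FPKM in the control. KRT8 was at 224 and 365 FPKM with siRNA 1 and siRNA 2, against 217 FPKM in the control, and its partner KRT18 at 60.8 and 68.4 FPKM, against 58.8 FPKM. KRT7 was highest with siRNA 1, at 342 FPKM, with 215 FPKM with siRNA 2, against 181 FPKM in the control. KRT2, the keratin of the upper spinous layer, stayed at or below 0.130 FPKM in all libraries.

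Genes of the layers to which the keratins belong were set beside them. Of 17 basal layer genes 16 were tested, and 0 were at least 2-fold from the control in both siRNA libraries, with median log2 ratios of 0.18 and 0.28. With siRNA 1, 0 of them were at least 2-fold higher and 0 lower, against 1.7% and 1.33% of all genes. With siRNA 2, 2 were higher and 1 lower, against 4.5% and 2.83%, and these 3 are named after their values were seen. TP63, which encodes the transcription factor of basal keratinocytes, had a highest transcript of 3.03 FPKM with siRNA 1 and 6.50 FPKM with siRNA 2, against 2.89 FPKM in the control. DSG3, the desmoglein of the lower layers, was at 41.3 and 150.0 FPKM with siRNA 1 and siRNA 2, against 55.2 FPKM in the control. ITGA3, a laminin-binding integrin chain, was at 33.3 and 13.3 FPKM, against 28.0 FPKM in the control, and was lowest with siRNA 2. Of 30 spinous and granular layer genes 29 were found by symbol, LORICRIN being the one not matched, so loricrin was not examined. Of these genes 15 were tested, with medians of -0.15 and 0.97. With siRNA 1, 2 of these were at least 2-fold higher and 0 lower, against 1.7% and 1.33% of all genes. With siRNA 2, 7 were higher and 1 lower, against 4.5% and 2.83% of all genes. The lower 1 was GRHL1, a grainyhead-like transcription factor, at 1.10 and 0.361 FPKM with siRNA 1 and siRNA 2, against 1.64 FPKM in the control. KLK5, a protease of the cornified layer, was the member at least 2-fold higher in both, as 0.733% of all genes were. It was at 14.5 and 11.2 FPKM with siRNA 1 and siRNA 2, against 4.31 FPKM in the control.

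Among the 7 higher with siRNA 2 were FLG and TGM1, named, like GRHL1, after their values were seen. FLG, the filaggrin gene, was at 0.703 and 8.16 FPKM with siRNA 1 and siRNA 2, against 0.179 FPKM in the control. It passed the filter through the siRNA 2 library alone, so its place among the 7 rests on that library. TGM1, a transglutaminase that crosslinks the cornified envelope, was at 0.448 and 3.61 FPKM with siRNA 1 and siRNA 2, against 0.456 FPKM in the control. IVL, the early envelope protein involucrin, had the opposite order, with 14.5 FPKM with siRNA 1 and 3.24 FPKM with siRNA 2, against 6.29 FPKM in the control. The layer genes thus did not share 1 pattern, though KRT1 and TGM1 were each highest in the siRNA 2 library. DSG1, the desmoglein of the suprabasal layers, was at or below 0.0391 FPKM in all 3 libraries, beside 9.14 FPKM of full-length KRT1 with siRNA 2.

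Of 25 wound and activation genes 21 were tested, with medians of -0.27 and 0.15. With siRNA 1, 3 were at least 2-fold higher and 3 lower, against 1.7% and 1.33% of all genes. With siRNA 2, 5 were higher and 2 lower, against 4.5% and 2.83%. Among the 5, SERPINB3 (summed 0.248, 3.08 and 0.501 FPKM with siRNA 1, siRNA 2 and control) passed the filter through the siRNA 2 library alone. So did SERPINB4 (0.512, 2.61 and 0.563 FPKM), so their place among the 5 rests on that library. In both libraries 1 was higher and 1 lower, against 0.733% and 0.28% of all genes. At least 2-fold higher in both siRNA libraries was MMP10, a matrix protease of the migrating wound edge, at 1.44 and 4.62 FPKM with siRNA 1 and siRNA 2, against 0.463 FPKM in the control. At least 2-fold lower in both was LCN2, an iron-binding protein of inflamed epithelium, at 11.4 and 8.52 FPKM, against 34.3 FPKM in the control.

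For the 6 keratins at least 2-fold from the control in either siRNA library, the genes with the most similar pair of log2 ratios over the 3 libraries were looked up among all genes tested. Nearest to KRT14 was AVPI1 (distance 0.04 on the log2 scale), at 27.8 and 83.9 FPKM with siRNA 1 and siRNA 2, against 18.3 FPKM in the control, followed by IL1R2 and CU639417.1. Among the nearest to KRT1 were CALB1 (0.07) and SPRR1B (0.46), the second a cornified envelope precursor at 7.86 and 56.5 FPKM, against 8.34 FPKM in the control. Nearest to KRT16 were HIST1H2BD, NDRG1 and GAB2 (0.06 to 0.07). KRT17 had no close neighbour, with DKK3 (0.21), CCN2 (0.31) and GPR176 (0.33) as the nearest. Nearest to KRT15 were CLIC4, TRIAP1 and STC2 (0.09 to 0.11), and nearest to KRT13 were ESF1, SEM1 and PPFIBP2 (0.07 to 0.08). Some of these genes were low. IL1R2 had a highest transcript of 0.113 and 0.557 FPKM with siRNA 1 and siRNA 2, against 0.0411 FPKM in the control. CALB1 was at 0.105 and 2.56 FPKM, against 0.193 FPKM in the control. At such levels the pseudocount of 1 FPKM weighs on the ratios. Each such likeness rests on 3 libraries and on a pair of ratios that share the control.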

How the data were processed

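RNA of 3 HaCaT cultures was sequenced, 1 library per siRNA. Per the labels, transfection used 10 nM siRNA and library preparation a SMARTer mRNA kit. The authors deposited FPKM per transcript, per the file headers. Builds in the submitters' processing notes are GRCh38.p12, GRCm38 and mm10, with no role stated. What aligner and counter were run is not given in the sources used here.

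FPKM times length was a whole multiple of a step in 100% of values above 0 in each library (tolerance 0.05). Of these steps 100 were called a read equivalent. The 2 KRT10 transcripts held 868 and 547 read equivalents with siRNA 1, 1088 and 475.5 with siRNA 2, and 814 and 648 in the control. All but 475.5 are whole numbers, so a read equivalent was taken as about 1 read and a step as a fraction of it. Values of other members were mostly not whole, such as 40.18 for KRT1-201 and 263.52 for KRT6B-201 with siRNA 1. What gave these fractions was not tested. Counting errors follow from read equivalents of the transcript with most of them, without the pseudocount. They leave out PCR duplication and all variation between cultures (counting error only). Of 247012 transcripts 20343 on other scaffolds or in duplicate copies were left out. Ratios used a pseudocount of 1 FPKM, which understates differences of low genes. limma 3.58.1 (R 4.3.3, with trend, Benjamini-Hochberg) was fitted to 13923 genes and tested on simulated data. No count model was run, as no counts per gene were held. Shared windows were exact 100-base matches in GENCODE 29 transcripts. Symbols are those of the files' transcript names. Named genes were the members, list genes at least 2-fold from control in both siRNA libraries, close copies, and the 3 nearest genes per member, of which 1 is not reported here. Other list genes were picked after their values were seen. Alternatives changed the transcript summary, pseudocount, filter and scaling. The members and lists were chosen with earlier results of these data known.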

Additional observations from a re-analysis of the deposited data

How the results depend on the processing

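KRT17 was the keratin at least 2-fold higher in both siRNA libraries under each of the 6 other settings of summary, pseudocount, filter and scaling, and 0 keratins were lower in both. With either siRNA library left out the count of keratins past 2-fold was 3 to 4. Of 70 keratin values under alternatives 1 changed sign, that of KRT10 with the full-length transcript (mean log2 0.32, against -0.07), an alternative added after seeing the data. By the same alternative the suprabasal class moved to a mean log2 of 0.65. Genes at least 2-fold from control in both siRNA libraries numbered 141, with 71 by the highest transcript, 57 by the mean over transcripts, 297 with a pseudocount of 0.1 FPKM, and 421 to 1021 with 1 siRNA library left out. In the same order of settings the counts were 233, 186 and 735 for siRNA 1 (421 as reported), 542, 440 and 1544 for siRNA 2 (1021) and 551, 425 and 1469 between the siRNAs (953). Leaving out libraries gave class means of 0.30 to 1.53 (basal), -0.18 to 0.18 (suprabasal), 0.33 to 0.87 (wound) and -1.10 to -0.50 (KRT13). A robust limma fit called 3 genes, 0 of them keratins, where limma called 0. limma without 1 siRNA library has no residual degrees of freedom and was not run. Depth limits KRT1 in the siRNA 1 and control libraries and KRT16 in the control. No paired analysis was possible because there is 1 control library.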
